A study of Mus musculus with 2 samples.

Results

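The collagen genes of the mouse were taken as the protein-coding genes whose symbol reads Col, a number, the letter a and a number. The rule found 44 of the 21707 protein-coding genes in the basic GENCODE M21 annotation of build mm10 (GRCm38), and these 44 genes have 66 annotated starts. By the type of assembly their proteins form, 11 are fibrillar, 8 belong to the basement membrane (collagen IV and the multiplexins Col15a1 and Col18a1) and 25 are of other types. The measurement was DNase-seq, in which nuclei are cut with the enzyme DNase I and places in the chromatin that are cut often are read out as open. Hindbrain came from B6NCrl mouse embryos at 11.5 days of age, with both sexes pooled, and gave 2 libraries that the labels call biological replicates 1 and 2 of 1 group. There was no second condition, no genetic change and no treatment. The study therefore holds no contrast between groups, and everything below is a count, a level or a range, with no test across samples.

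Peaks were listed for each library apart. A peak is 150 bp wide and carries a deposited height, a whole number that lay between 1 and 149. Replicate 1 had 150176 analysed peaks with a median height of 36, and replicate 2 had 194873 with a median of 50, so replicate 2 has the longer list and the taller peaks. The read depth behind the lists is unknown. Where a peak of replicate 1 and a peak of replicate 2 had 1 bp or more in common they were joined into 1 site, which is called shared. A gene is called open here when a shared site lies within 1 kb of one of its starts, its promoter window. The height given for a gene is that of its highest promoter peak in each library, and the 2 values can come from different sites. Because the scaling of heights is unknown, each height was also turned into a percentile among all peaks of its library. In whole tissue, a low peak in many cells and a high peak in few cells cannot be told apart, and no RNA was measured.

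Collagens are secreted proteins built from 3 chains wound into a triple helix, with repeated glycine residues that let the chains pack. Fibrillar collagens assemble outside the cell into banded fibrils of connective tissue, cartilage and bone, while collagen IV forms the sheet-like network of basement membranes under epithelia and around vessels. FACIT collagens sit on the surface of fibrils, collagen VI forms beaded microfibrils, and transmembrane collagens stay anchored in the plasma membrane. In the embryonic hindbrain the neural tube is wrapped by a basement membrane and by mesenchyme that gives rise to meninges and skull, and vessels grow into it. Neuroepithelial cells are not the main source of fibrillar collagen in textbooks, although type II collagen is known in notochord and parts of the early neural tube.

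The sequences below carry the main patterns, and all come from the GRCm38.p6 genome, read along the strand of the gene. The first set shows 3 promoters: the 2 tallest fibrillar ones, and the stretch between the starts of a basement membrane pair whose promoter peaks were among the lowest. Capitals mark exact matches on either strand to the promoter element CCAAT, bound by factor NF-Y. They also mark matches to GGGCGG, the box bound by SP1 and related factors, and searches for TATAAA, the element bound by the basal factor TBP, were made in the same way. The Col11a1 promoter site is chr3:114030336-114030525 on the plus strand, the Col5a1 promoter site is chr2:27886196-27886385 on the plus strand, and the stretch from the Col4a4 start to the Col4a3 start is chr1:82586850-82586975, written along the plus strand of Col4a3.
Col11a1 promoter: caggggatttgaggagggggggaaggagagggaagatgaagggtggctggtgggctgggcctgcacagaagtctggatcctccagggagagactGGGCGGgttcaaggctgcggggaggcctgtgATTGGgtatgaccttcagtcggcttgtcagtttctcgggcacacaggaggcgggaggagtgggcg
Col5a1 promoter: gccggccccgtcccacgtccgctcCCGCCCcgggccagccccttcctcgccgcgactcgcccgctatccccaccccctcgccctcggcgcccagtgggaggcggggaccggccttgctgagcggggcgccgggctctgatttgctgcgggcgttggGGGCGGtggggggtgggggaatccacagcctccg
Col4a3 to Col4a4: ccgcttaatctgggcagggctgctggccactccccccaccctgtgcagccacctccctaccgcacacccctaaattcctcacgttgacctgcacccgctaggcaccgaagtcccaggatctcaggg
The Col11a1 site held 1 GGGCGG and 1 CCAAT match, and the Col5a1 site held 2 GGGCGG matches. None of the 3 motifs was in the 126 bp between Col4a4 and Col4a3. A match of this kind is a description of letters and not evidence of binding.

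The second set shows sites inside or far from collagen genes. They are the Col1a1 site with the highest peak in replicate 1, 3 sites of Col2a1 (1 of its row of sites in intron 1 and the 2 tallest, in introns 15 and 17), the tallest distal sites of Col6a4, Col26a1 and Col18a1. Capitals again mark CCAAT on either strand. They mark ACAAAG, a core bound by SOX and TCF factors, and its relative of the SOX family with the letters ACAATG. The last marked motifs are GTTGCC, one arm of the X-box bound by RFX factors, and the core of the motif of the insulator protein CTCF. GTTGCC and the CTCF core were added to the search after these sequences had been read.
Col1a1 intron 1: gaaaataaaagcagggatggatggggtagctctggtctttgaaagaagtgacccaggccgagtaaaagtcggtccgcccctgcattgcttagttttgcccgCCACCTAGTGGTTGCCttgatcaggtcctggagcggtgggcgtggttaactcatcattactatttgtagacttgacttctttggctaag
Col2a1 intron 1: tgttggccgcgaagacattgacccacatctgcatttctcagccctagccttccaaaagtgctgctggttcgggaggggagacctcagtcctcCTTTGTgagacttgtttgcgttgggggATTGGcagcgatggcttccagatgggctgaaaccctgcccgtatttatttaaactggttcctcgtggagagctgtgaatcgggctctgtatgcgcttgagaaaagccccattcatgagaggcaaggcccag
Col2a1 intron 15: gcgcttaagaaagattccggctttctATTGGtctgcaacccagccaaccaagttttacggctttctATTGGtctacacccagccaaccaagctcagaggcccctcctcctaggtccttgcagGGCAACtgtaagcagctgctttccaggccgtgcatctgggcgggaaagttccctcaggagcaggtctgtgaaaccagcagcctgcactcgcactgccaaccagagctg
Col2a1 intron 17: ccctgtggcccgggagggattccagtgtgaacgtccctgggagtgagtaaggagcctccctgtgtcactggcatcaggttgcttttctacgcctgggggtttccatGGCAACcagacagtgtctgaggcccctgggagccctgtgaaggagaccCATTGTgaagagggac
Col6a4 upstream: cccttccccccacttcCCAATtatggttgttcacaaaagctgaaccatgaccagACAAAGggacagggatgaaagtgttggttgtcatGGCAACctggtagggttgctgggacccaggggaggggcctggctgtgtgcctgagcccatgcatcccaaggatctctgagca
Col26a1 intron 1: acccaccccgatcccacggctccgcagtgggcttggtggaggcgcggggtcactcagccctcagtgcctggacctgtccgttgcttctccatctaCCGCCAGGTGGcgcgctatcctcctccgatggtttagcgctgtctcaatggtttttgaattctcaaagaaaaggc
Col18a1 intron 2: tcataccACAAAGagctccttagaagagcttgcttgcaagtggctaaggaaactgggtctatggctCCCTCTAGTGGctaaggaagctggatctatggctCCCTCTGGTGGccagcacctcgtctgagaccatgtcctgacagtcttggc
The Col1a1 site is chr11:94937076-94937265 on the plus strand, and its CTCF core and GTTGCC matches share a base. The Col2a1 sites are chr15:98002396-98002645, chr15:97992936-97993165 and chr15:97990236-97990405, all on the minus strand. The Col6a4 site is chr9:106127056-106127225, the Col26a1 site chr5:136881496-136881665 and the Col18a1 site chr10:77130696-77130845, also on the minus strand. The Col2a1 intron 15 site held 2 CCAAT matches and 1 GTTGCC match, and the Col18a1 site held 2 matches to the loose CTCF core.

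Of the 44 collagen genes, 33 were open in both libraries, a share of 75% with an exact Clopper-Pearson 95% interval of 59.7 to 86.8. Among all protein-coding genes the share was 66.0%, which lies inside that interval, so by shared sites the family as a whole sat near the background. The shares with a peak in each library alone, given below, lay above those of all genes. The types differed in their counts. All 11 fibrillar genes were open (interval from 71.5%), all 8 basement membrane genes were open (from 63.1%), and 14 of the 25 other genes were open (34.9 to 75.6%). Only the fibrillar interval lay above the 66.0% background, and the difference between the types was not tested. The basement membrane count holds 2 pairs of genes that share the site at their starts, so its genes are not independent. Intervals here cover counting error only.

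**Figure D1:**
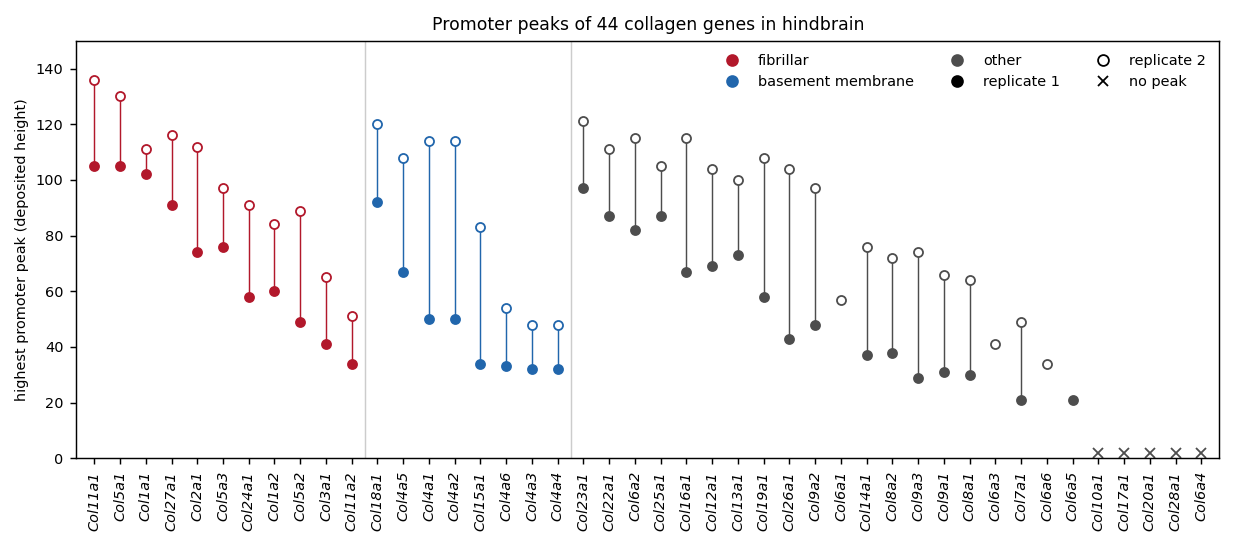
Height of the highest promoter peak (y axis, deposited units) for each of the 44 collagen genes (x axis), in replicate 1 (filled) and replicate 2 (open circles), grouped by type; a line joins the 2 values of a gene and a cross marks no peak in either library. All 11 fibrillar and 8 basement membrane genes have points from both libraries, and the 5 genes with crosses are of other types.

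Among fibrillar genes, Col11a1 and Col5a1 had the tallest promoter peaks. Col11a1, a minor chain that sits inside cartilage fibrils, had heights of 105 in replicate 1 and 136 in replicate 2. Col5a1, the chain of type V collagen that starts fibril growth, had 105 and 130. Both rank in the top of their libraries, at mean percentiles of 97.1 and 96.2, and are the only collagen promoters of the fibrillar group above the 95.3 that is the median of all open genes.

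The 2 chains of type I collagen, the main fibril of bone, skin and tendon, differed in where their tallest promoter peak lay. In Col1a1 the site over the start had heights of 31 and 53, while a site 946 bp downstream, in intron 1, had 102 and 111. In Col1a2 the tallest shared site began 63 bp past the start, in exon 1, with 60 and 84. Col3a1, which co-assembles with type I in soft tissue, had a single promoter site over its start with 41 and 65, at a mean percentile of 61.3.

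Col2a1, the fibril of cartilage, had a site over its start with heights of 74 and 112. Col27a1, a fibrillar chain of cartilage, had its tallest site 675 bp downstream of the start with 91 and 116, and 71 and 101 at the site nearest the start. These are middle to high among the 11 fibrillar genes, whose medians were 74 and 97. Col5a3 had 76 and 97, and Col24a1, a chain known from bone, had 58 and 91. Col5a2, which joins Col5a1 in type V fibrils, had 49 and 89. Col11a2, with 34 and 51, was the lowest fibrillar gene in both libraries: its shared site lay 521 bp from the nearest start, and it was lost when the window was set to 500 bp or when only peaks above their library's median height were used.

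Basement membrane promoters were open, with medians of 42 and 95.5 over the 8 genes, against 74 and 97 for fibrillar genes. They were thus lower than the fibrillar ones in replicate 1 and close to them in replicate 2. Col18a1, whose protein gives rise to endostatin, was the tallest of them with 92 and 120, at a site 908 bp downstream of its upstream start. Its site over that start had 77 and 107. Col4a5 followed with 67 and 108. Col15a1, the other multiplexin, had 34 and 83, and Col4a6 had 33 and 54.

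Collagen IV genes lie in head-to-head pairs, each pair sharing a stretch of DNA from which the genes are read in opposite directions. The starts of Col4a1 and Col4a2, which encode the ubiquitous chains of the network, lie 21 bp apart on chromosome 8. They share 1 site over both starts with heights of 50 and 114, and a cluster of further sites gives Col4a1 5 and Col4a2 6 shared promoter sites. The starts of Col4a3 and Col4a4, chains of specialised membranes such as that of the kidney glomerulus, lie 127 bp apart on chromosome 1. Their 1 shared site had 32 and 48, below the median peak of each library, and it was no longer shared when an overlap of 75 bp was required. In the third pair the starts of Col4a5 and Col4a6 lie 1309 bp apart on the X chromosome, and each gene had a site of its own. So the pair with the ubiquitous chains had more and taller sites than the pair with the specialised chains, in both libraries.

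The basement membrane count depends on how tall a peak must be. With peaks above the median height of their library, or with peaks in hotspots at the highest deposited value, 4 of the 8 genes were open, and Col15a1, Col4a3, Col4a4 and Col4a6 were lost in both settings. The fibrillar count moved less, with Col11a2 lost in both settings and Col3a1 in the second.

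FACIT collagens were open in 8 of 9 genes, with an exact interval of 51.8 to 99.7% that includes the 66.0% of all genes. Col22a1, found at tissue junctions, had the tallest promoter of them in replicate 1 with 87, and 111 in replicate 2. Col12a1, on the fibrils of dense connective tissue, had 69 and 104, and Col16a1 had 67 and 115. Col19a1, a gene known in muscle and in neurons, had 58 and 108 at a site in intron 1, with 49 and 91 over the start. The type IX genes, whose chains coat cartilage fibrils, were lower. Col9a2 had 48 and 97, Col9a1 had 31 and 66, and Col9a3 had 29 and 74. Col14a1, which binds fibrils in soft tissue, had 37 and 76, and Col20a1 was the FACIT gene with no promoter peak in either library.

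Collagen VI showed the lowest open share of the types with more than 1 gene, 1 of 6 genes. The exact interval was 0.421 to 64.1%, against 66.0% of all genes. The median ratio of observed to expected CpG around the starts of these genes, a measure taken up below, was 0.303. From 0.2 to 0.4 of that ratio, 27.3% of all genes were open, although Col6a2 and Col6a6 lay above 0.4. Col6a2 had 82 and 115. Col6a1 and Col6a3, the chains that join Col6a2 in the standard trimer, had peaks in replicate 2 alone, with heights of 57 and 41. Col6a6 had a peak of 34 in replicate 2 alone, Col6a5 had one of 21 in replicate 1 alone, and Col6a4 had none. Thus of the 3 chains of the standard collagen VI trimer, only Col6a2 had a shared promoter site.

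Transmembrane collagens were open in 3 of 4 genes. The exact interval of that count, 19.4 to 99.4%, includes the 66.0% of all genes. The 3 open genes were tall among collagens, with mean percentiles of 94.1 (Col23a1), 90.1 (Col25a1) and 85.8 (Col13a1) against a median of 80.2 for open members. Each was below the 95.3 that is the median of all open genes. Col23a1 had 97 and 121, the tallest of the 25 genes of other types. Col25a1, known from the brain and from amyloid plaques, had 87 and 105, and Col13a1 had 73 and 100. Col17a1, the hemidesmosome collagen of the epidermis, had no promoter peak. Of the short-chain genes, Col8a2 was open with 38 and 72, and Col10a1, the collagen of hypertrophic cartilage, had no peak. Col8a1 had peaks of 30 and 64 that did not overlap, as did Col7a1, the anchoring fibril of the skin, with 21 and 49. Col26a1 was open with 43 and 104, and Col28a1 had no peak.

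In all, a promoter peak was found in replicate 1 for 36 members (81.8%, exact interval 67.3 to 91.8%, all genes 67.2%). In replicate 2 one was found for 38 (86.4%, interval 72.6 to 94.8%, all genes 69.5%). Replicate 2 alone had one in 3 members (all genes 3.09%) and replicate 1 alone in 1 member (all genes 0.700%), and all 4 belong to collagen VI. The 5 members with no peak in either library (11.4%, interval 3.79 to 24.6%, all genes 29.8%) were Col10a1, Col17a1, Col20a1, Col28a1 and Col6a4. In each library, and for members without a peak, the share of all genes lay outside the interval, just below it in replicate 1. For shared sites it lay inside.

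Promoter heights of open collagen genes lay under those of open genes in general. The medians of the 33 open members were 58 and 104, against 101 and 127 for the 14320 open protein-coding genes. By percentile the median was 80.2, with quartiles of 62.0 and 90.1, against 95.3, with quartiles of 88.5 and 97.8. When the highest peak of each open member was ranked among all promoter peaks, lesser peaks of each gene included, the median percentile was 58.7. No value on that scale was made for all open genes, so it does not place the members against a typical open gene.

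All 35 members with a peak in both libraries were higher in replicate 2, as were 14343 of 14426 genes. The median ratio of replicate 2 to replicate 1 was 1.57 over these members and 1.26 over all genes. The ratios were not matched for height. Heights ended at 145 in replicate 1 and 149 in replicate 2, and open members had a median of 58 in replicate 1, against 101 for all open genes. Whether the ratio differs between genes of like height was not tested. Col1a1 had the lowest ratio, 1.09, and Col9a3 the highest, 2.55, with Col26a1 at 2.42 and the Col4a1 and Col4a2 site at 2.28. In 28 of the 35 both values come from 1 site, and in Col11a2, Col5a2, Col15a1, Col13a1, Col23a1, Col7a1 and Col8a1 they do not. Col15a1, for example, had a ratio of 2.44 between its highest peaks, and its shared site, with 34 and 72, had 2.12. Across the 35 members the heights of the libraries correlated with a Spearman rho of 0.871 and a Pearson r of 0.851, a description over genes that share their 2 libraries. The members with the largest ratios were low in replicate 1.

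The content of CpG dinucleotides was set beside openness, because promoters rich in CpG tend to be open in most tissues. The ratio of observed to expected CpG in about 1 kb around the start had a median of 0.453 over the members and 0.607 over all genes. From a ratio of 0.4 upward, 24 of 26 members (92.3%) were open, near the 94.3% of all genes there. Below 0.4, 9 of 18 were, against 15.2% of all genes. Below 0.2 this was 2 of 4 members (Col3a1 and Col9a1) against 4.91% of all genes, and from 0.2 to 0.4 it was 7 of 14 against 27.3%. The exact intervals were 6.76 to 93.2% and 23.0 to 77.0%, so only the first lay above its background, on 4 genes. Of the 9 open members below 0.4, 6 were fibrillar.

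**Figure D2:**
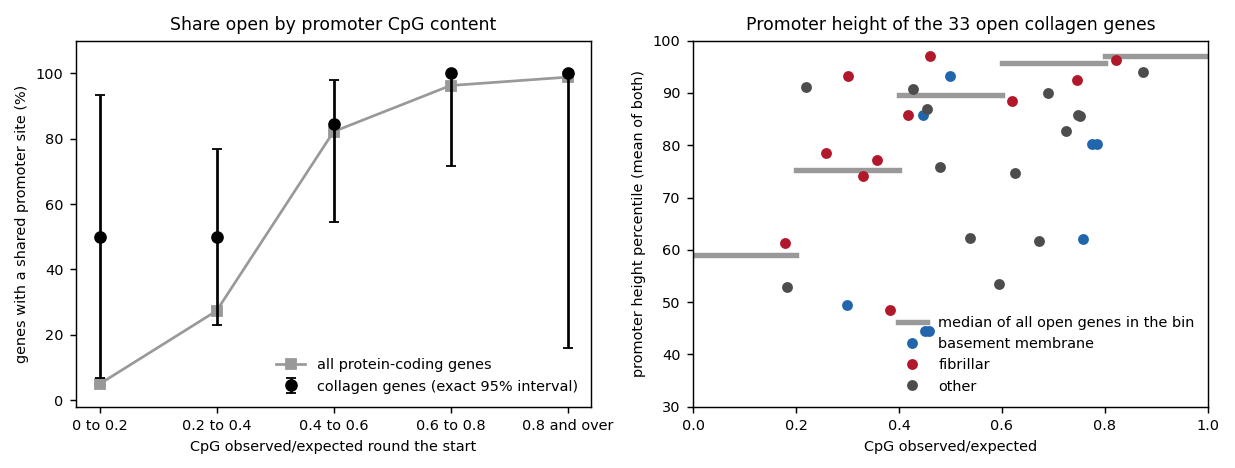
Left, percentage of genes with a shared promoter site (y axis) by bin of CpG observed to expected ratio (x axis), for collagen genes (black, exact 95% intervals) and all protein-coding genes (grey); right, mean promoter height percentile (y axis) against the ratio (x axis) for the 33 open collagen genes, with grey bars at the median of all open genes of each bin. In the bin from 0.6 to 0.8, all 11 members are open and all 11 points lie under the grey bar at 95.8.

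Heights within these bins showed a different picture from counts. In the bin from 0.6 to 0.8 all 11 members were open, against 96.3% of genes, but each of the 11 stood below the median percentile of the open genes there, 82.7 against 95.8 at the medians. Their median heights were 58 and 105, against 103 and 128. The 11 were Col12a1, Col13a1, Col15a1, Col19a1, Col25a1, Col26a1, Col27a1, Col2a1, Col4a1, Col4a2 and Col8a2. Over all bins, 25 of the 33 open members lay below the median of open genes in their bin. From 0.2 to 0.4 only 3 of 7 did so.

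A shared site covered a start in 20 of the 33 open members (60.6%), against 69.3% of the 14320 open genes, and lay within 150 bp of one in 30. The members farther away were Col11a2, Col9a2 and Col9a3, whose sites lay 521, 531 and 274 bp downstream. In 28 of the 33, the site nearest the start was also the tallest in replicate 1. The exceptions were Col1a1, Col27a1, Col18a1, Col14a1 and Col19a1, where the tallest lay 311 to 946 bp downstream. These were exceptions in replicate 2 as well, joined there by Col5a2, Col13a1 and Col23a1 with their tallest shared sites 862, 593 and 340 bp downstream. No promoter site of a collagen gene lay within 1 kb of a protein-coding start outside the family, although 8 of the 59 shared promoter sites had a non-coding start within 1 kb.

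Where a collagen gene has distant alternative starts, openness was found at some of them. Col18a1 was open at its upstream start, chr10 position 77166548, with 92 and 120, and had no peak at the downstream starts 77113946 and 77113705. Col15a1 was open at 47208161 on chromosome 4 and had none at 47288069 and 47303722. Col22a1 was open at 72034227 on chromosome 15 and had none at 71954399. Col9a1 showed the opposite order: its upstream start, 24177610 on chromosome 1, had no peak in either library, and its downstream start, 24195187, had 31 and 66. The upstream Col9a1 start is the one known from cartilage, and the downstream one is known from the eye.

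Hotspots, the wider regions of raised cutting that were deposited beside the peaks, covered a start in 30 members in replicate 1 (all genes 61.4%) and 38 in replicate 2 (65.9%). A hotspot of over 2 kb over a start was seen for 2 members in replicate 1 (4.55%, all genes 3.93%) and 14 in replicate 2 (31.8%, all genes 21.2%). Both shares of all genes lie inside the exact intervals of the members, 0.555 to 15.5% and 18.6 to 47.6%. The 2 members in replicate 1 were Col2a1 with 4260 bp and Col12a1 with 2334 bp. In replicate 2 the same 2 genes had 4810 and 5406 bp, the widest at Col12a1.

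Beyond the promoters, 202 shared distal sites, over 1 kb and up to 100 kb from a start, had a collagen gene as nearest protein-coding gene. The mean was 4.59 per member (SD 3.71 over members) and the median 3.5, against 2.54 and 1 for all genes. At least 1 such site was found for 42 of 44 members (all genes 64.0%), 5 or more for 18 (18.4%) and 10 or more for 6 (5.14%). Collagen genes also have more DNA to which a site can be assigned: the median stretch nearest to a member was 102 kb, against 45.4 kb. Per 100 kb of that stretch, pooled over genes, the members had 4.07 sites and all genes 3.66. The counts stood above those of all genes, and the pooled densities lay close together.

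**Figure D3:**
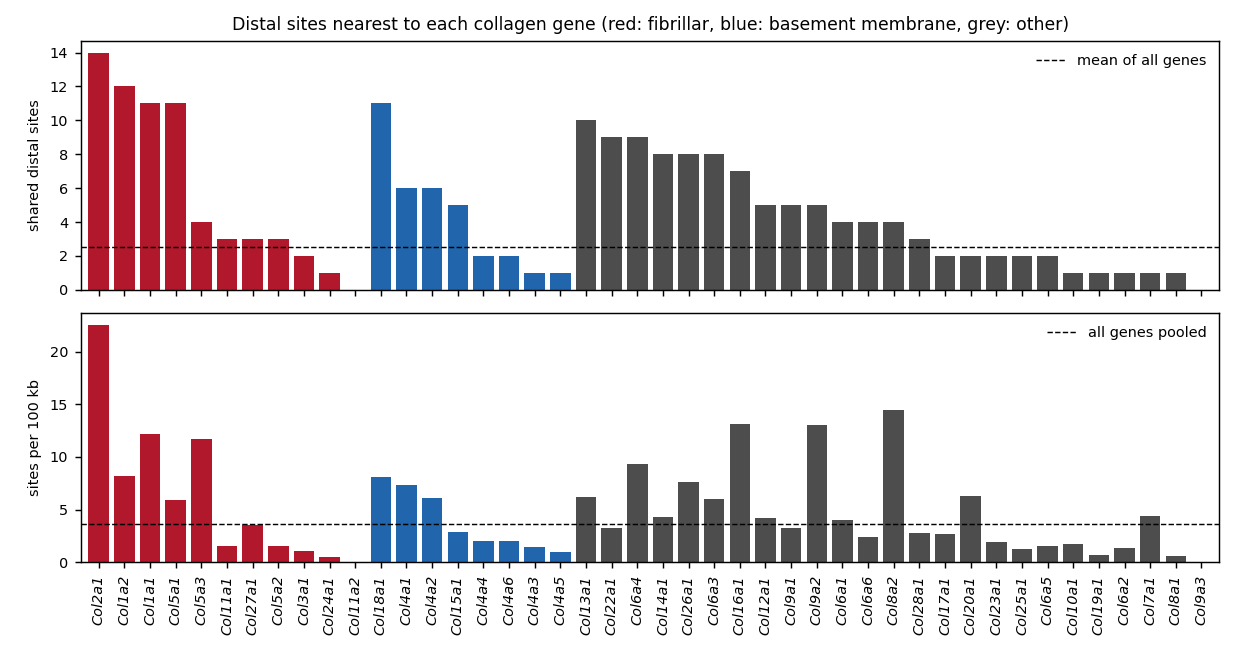
Shared distal sites per collagen gene (upper y axis, count) and per 100 kb of the stretch nearest to the gene (lower y axis), for fibrillar (red), basement membrane (blue) and other genes (grey); dashed lines mark the mean count of all genes, 2.54, and their pooled density, 3.66. Col2a1 has the highest bar in both panels, at 14 sites and 22.5 per 100 kb, and Col11a2 and Col9a3 have none.

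Fibrillar genes had a mean of 5.82 distal sites (SD 5.08), basement membrane genes 4.25 (SD 3.45) and other genes 4.16 (SD 3.08). The means of the basement membrane and other genes did not keep their order: with a limit of 50 kb they were 3.13 and 3.24. The SD over genes of each type exceeded the gaps between the means. Among the fibrillar genes 4 held 11 or more (Col2a1, Col1a2, Col1a1 and Col5a1), and the other 7 held 0 to 4. Col18a1 was the basement membrane gene with most, at 11, and Col13a1 the other gene with most, at 10. Restricting both lists to their taller peaks, over the median height, gave means of 2.91, 2.63 and 1.96.

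**Figure D4:**
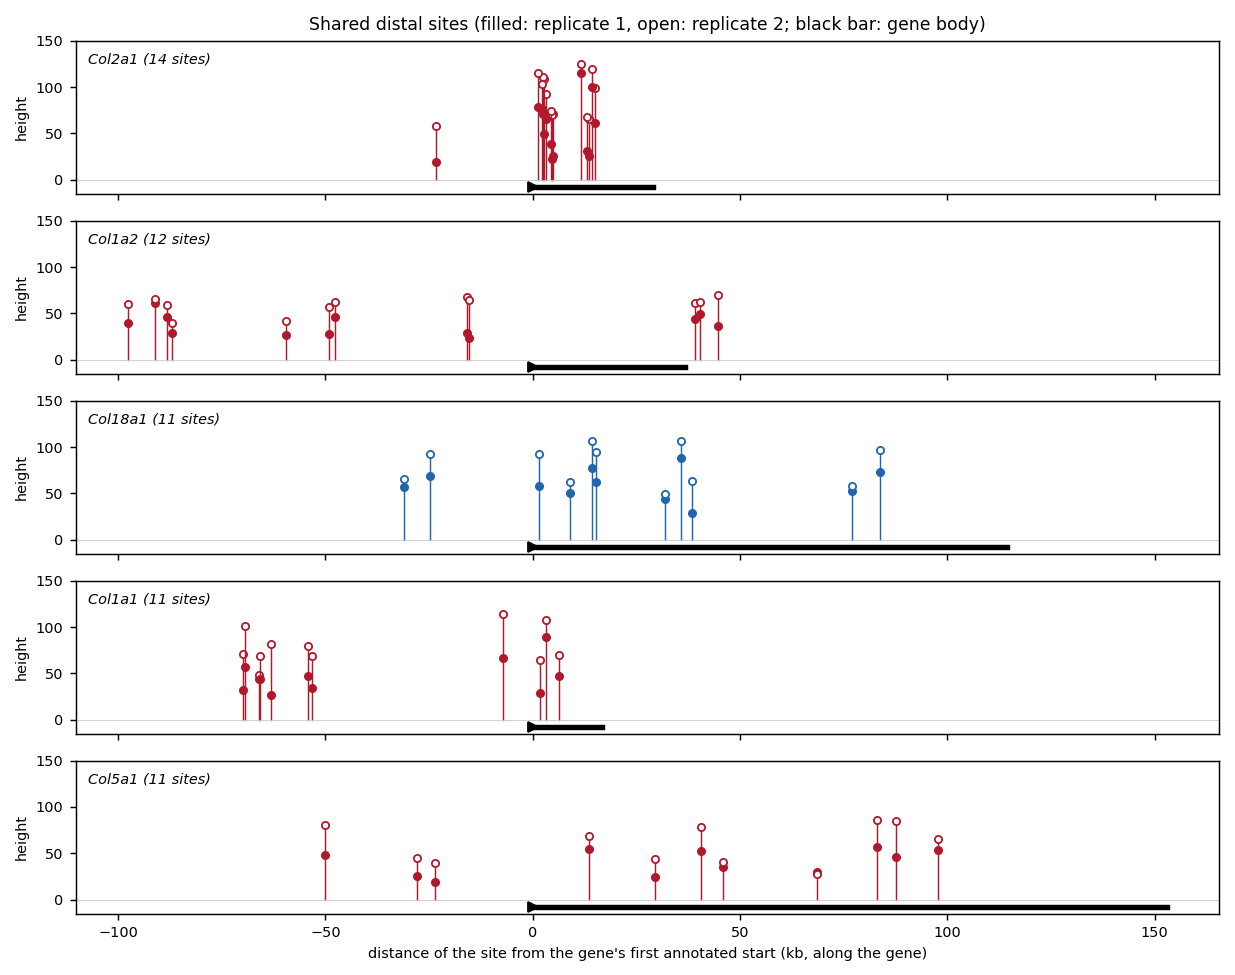
Shared distal sites of the 5 collagen genes with most of them, by distance from the first annotated start in kb along the gene (x axis) and deposited height (y axis) in replicate 1 (filled) and replicate 2 (open circles); the black bar is the gene body. The Col2a1 sites gather inside the gene, 13 of 14, and the Col1a1 and Col1a2 sites lie mostly upstream, 8 of 11 and 9 of 12.

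Col2a1 had the densest set. Of its 14 sites, 13 lay in its own introns: 8 in intron 1, between 1.34 and 4.89 kb from the start, and 5 in introns 15, 16 and 17. The 8 sites of intron 1 had heights of 22 to 78 in replicate 1 and 70 to 115 in replicate 2. The tallest distal site of the whole family, in intron 15, had 115 and 125, and the site in intron 17 shown above had 100 and 120. As background, the first intron of Col2a1 holds an enhancer that SOX9 binds in chondrocytes. Sox9 itself was open here with 101 and 124. In the cartilage list, which includes Sox9, 7 of 8 genes were open (exact interval 47.3 to 99.7%). The 66.0% of all genes lies inside that interval, so the count does not mark cartilage. Which cells carried these sites was not tested. With a required overlap of 75 bp, 7 of the 14 Col2a1 sites were still counted as shared.

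In Col1a1, 7 of its 11 sites lay between 53.3 and 69.9 kb upstream, in intergenic DNA, with heights of 27 to 57 in replicate 1 and 48 to 101 in replicate 2. Another lay 7.19 kb upstream with 67 and 114. The tallest by mean percentile, in intron 6, had 89 and 108. Under a limit of 50 kb the count of Col1a1 was 4. Nearest-gene assignment at such distances does not show which gene a site acts on.

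All 12 sites of Col1a2 were intergenic, 9 upstream and 3 past the end of the gene, and none was tall. Heights ran from 23 to 61 in replicate 1 and from 40 to 70 in replicate 2. Neighbouring sites at 15.4 and 16.0 kb upstream had 23 and 64, and 29 and 68. As background, a far-upstream enhancer of mouse Col1a2 is known from fibroblasts. When only peaks in hotspots at the highest deposited value were used, 3 Col1a2 sites were counted, and under a limit of 50 kb 7 were.

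Col5a1 had 8 of its 11 sites in its own introns, spread from 13.7 to 97.7 kb downstream, with a median height of 46 and 65. Col18a1 had 9 of 11 in introns, 8 of them in intron 2 by the annotation used. The highest of these, shown above, had 88 and 107, and lay 16.8 kb upstream of the start at 77113946, which itself had no peak. With peaks above the median height, Col5a1 and Col1a1 each had 6 sites.

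Among the remaining genes, Col26a1 provided 3 of the 10 tallest distal sites of the family: 95 and 122 at 1.54 kb in intron 1, 92 and 112 at 92.1 kb in intron 3, and 77 and 118 at 19.0 kb in intron 1. Its promoter, by contrast, had 43 and 104. Col6a4 had no promoter peak but held 9 distal sites. The tallest of them, 30.4 kb upstream with 109 and 113, overlaps annotated starts of the long non-coding RNA Gm29208, so by the annotation it is also a promoter site of that transcript. Col6a3, which had no promoter peak in replicate 1, held 8, the tallest 99.9 kb downstream of its start and so at the edge of the assignment limit, with 93 and 118. Col14a1 had 93 and 106 at a site 1.24 kb upstream, just outside its promoter window.

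The Col4a1 and Col4a2 pair shows how assignment by nearest start works. Each gene has 6 distal sites and all of them lie within the body of the partner. The starts cross: that of Col4a2, on the plus strand, is at 11312805, and that of Col4a1, on the minus strand, is at 11312826. The 2 gene bodies thus overlap at the starts, and a site inside one gene is nearer to the start of the other. In Col4a3 and Col4a4, whose starts do not cross, the 1 and 2 distal sites lay in introns of their own gene. When a site inside a gene body was given to that gene, the mean of the basement membrane group went from 4.25 to 5. Distal heights of the family were near those of all genes: medians of 39.5 and 65 over the 202 sites, against 43 and 67 over 55090. By annotation, 126 sites were intronic, 5 exonic and 71 intergenic, and 117 (57.9%) lay in the gene to which they were assigned.

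Motif searches were made in the central 150 bp of each distal site, as exact letters on both strands. CCAAT was found in 21.8% of collagen sites and 17.5% of all 55090, ACAAAG in 16.3% and 15.6%, CAGCTG (an E-box) in 15.8% and 15.5%, and TGACTCA (the AP-1 element) in 4.95% and 2.93%. GTTGCC was in 10.4% and 8.75%, and the CTCF core in 30.7% and 34.3%. These shares lay close to one another, with 10 collagen sites behind the TGACTCA value. In Col2a1, 6 of 14 sites held ACAAAG and 4 held GTTGCC. The SP1 box was also in 4 of them, and the NF-Y element was in 3. The RFX arm was added to the search after the sequences above had been read. Those sequences include the Col2a1 sites in introns 15 and 17, which both hold it. Its Col2a1 count is therefore not independent of the choice of motif. Whether any motif is more frequent at Col2a1 than at other sites was not tested.

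In the 250 bp before the starts, GGGCGG was present at 53.0% of the 66 collagen starts and 42.1% of all 41264, CCAAT at 33.3% and 33.9%, and TATAAA at 10.6% and 10.8%. CCGGAA, the core of ETS sites found at many housekeeping promoters, was present at 3.03% and 15.1%. The collagen share is 2 starts, of Col18a1 and Col22a1. Starts of 1 gene overlap in sequence, so these shares are not over independent promoters.

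Genes that build, cut and bind collagen were read in the same way, with no test of a difference from the collagens. Of 18 genes of collagen biosynthesis (prolyl and lysyl hydroxylases, chaperones and sugar transferases), 17 were open. The exact interval was 72.7 to 99.9%, against 66.0% of all protein-coding genes. P4hb, the protein disulfide isomerase in prolyl hydroxylase, had peaks of 124 and 141 that did not form a shared site, Ppib had 121 and 143 and Plod3 had 117 and 139. The median heights of the open genes of this list were 90 and 127, against 58 and 104 for open collagens.

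Fibril processing and crosslinking genes were open in 13 of 14, led by Tll2 with 83 and 116, Bmp1 with 79 and 122 and Loxl1 with 85 and 109, and Loxl2 had no peak. Collagen receptors were open in 8 of 10, led by Ddr1 with 123 and 135, and Gp6 and Lair1, receptors of platelets and leukocytes, had none. Of 10 measured genes of collagen breakdown 7 were open, led by Timp2 with 103 and 133, and Mmp13 and Mmp8 had none. Basement membrane partners were open in 15 of 16, led by Agrn with 117 and 133 and Hspg2 with 120 and 131, with no peak at Nid1. Fibril partners were open in 14 of 18, led by Fn1 with 109 and 130, with no peak at Matn1 and Postn. The 66.0% of all genes lay inside the exact intervals of receptors (44.4 to 97.5%), breakdown genes (34.8 to 93.3%) and fibril partners (52.4 to 93.6%). It lay just under the interval of processing and crosslinking genes (from 66.1%) and under that of basement membrane partners (from 69.8%).

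Promoters were also read at markers of the cells that a hindbrain dissection can hold. Hindbrain neural tube genes were open in 11 of 13, with Sox2 at 115 and 135, and the other 2, Hoxa2 and Hoxb2, had a peak in replicate 2 alone. Mesenchyme and meninges genes were open in 11 of 12, with Crabp2 at 108 and 126 and Tbx18 at 102 and 119. Endothelium genes were open in 5 of 10, with Kdr at 79 and 122 and no peak at Cdh5 and Emcn. Bone genes were open in 2 of 5. Surface epithelium genes were open in 4 of 8, with Grhl2 at 56 and 102, Epcam at 47 and 98 and Cdh1 at 31 and 84, and no peak at Krt14 and Krt5. Among all protein-coding genes 66.0% were open, a share inside the exact interval of each of these lists. The interval was 54.6 to 98.1% for neural tube genes and 61.5 to 99.8% for mesenchyme genes. Within the mesenchyme list, Dcn and Lum had mean percentiles of 47.9 and 44.7, and Postn had no peak. These counts of open promoters therefore do not set any list apart from genes in general. Distal counts differed more. Mean shared distal sites per gene were 17.3 for neural tube, 10.75 for cartilage and 8.67 for mesenchyme. They were 4.5 for endothelium, 4.25 for surface epithelium and 2.4 for bone, against 2.54 for all genes. For these lists the distal counts were not set against the DNA nearest to each gene, and no test was made. Whether the collagen sites come from mesenchyme, vessels or neural tube was not tested.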

How the data were processed

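DNase-seq of 2 libraries of embryonic hindbrain was analysed from lists that the authors called per replicate on build mm10, per the text deposited beside the files. Neither aligner nor peak caller is given in the sources used here. Peaks carry a deposited signal, the peak height, with no stated scaling. Hotspots carry a deposited −log10 value of a false discovery estimate, from 1.30 to 6, or 100. Only autosomes, X and Y were kept, and repeated entries were removed. Starts came from protein-coding transcripts of the basic GENCODE M21 set without read-through transcripts, 41264 in all. A site's distance was measured from its edge for promoters and for the 100 kb limit, and printed from its middle. Sites numbered 231068, of which 97657 were shared. A percentile is the rank of a height among the peaks of its library, averaged over both libraries.

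Assignment was tested on simulated peaks placed at known distances. Named were every member, the 10 tallest distal sites, the 5 members with most distal sites and, from each partner or marker list, genes among its 3 highest and its first 2 without a peak. Hoxa2 and Hoxb2 were chosen after their values were seen. Members, types and lists were chosen with earlier results of these data known. Both replicates are 1 group, so no test across samples was made, and whether they came from separate litters is not stated. Alternatives were each library alone, height and hotspot thresholds, list length, overlap, windows, start sets, assignment rules and type definitions. Sequences were read with pysam 0.24.0, intervals computed with scipy 1.17.1, and tables and plots made with pandas 2.3.3, matplotlib 3.10.9 and numpy 2.4.6 under Python 3.11.15.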

Additional observations from a re-analysis of the deposited data

How the results depend on the processing

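Of the values recomputed, 70 stayed within their limit and 25 moved. The limit for counts of open promoters was a wide fold change, so that a fall from 33 to 22 open members was taken as staying. For the other values it was the SD between the results of each library alone, which rests on 2 values. The 70 are thus no strong sign of stability. The order of the basement membrane and other distal means, 4.25 and 4.16, turned round without replicate 1 (7.88 and 8.72), with a 50 kb limit (3.13 and 3.24), by gene body (5 and 5.12), with collagen IV alone (3 and 4.44) and with Col7a1 added (3.89 and 4.29). From one library alone, distal sites per member ranged from 7.11 to 8.93, fibrillar 8.91 to 10.2, basement membrane 6.88 to 7.88 and other 6.4 to 8.72, since all sites of that library are then counted. With peaks above the median height of their library these means were 2.32, 2.91, 2.63 and 1.96, and 4 basement membrane promoters were open. With peaks in hotspots at the highest deposited value they were 2.02, 2.91, 2.13 and 1.6, with 4 basement membrane and 9 other promoters open. A 75 bp overlap gave a fibrillar mean of 4.64, and a 50 kb limit gave 4. The median percentile among promoter peaks was 58.7. Over these settings the number of open members ran from 22 to 38; it was 31 with a 500 bp window, 36 with 2500 bp and 30 with 150 bp, the last chosen after seeing the data. Cutting the replicate 2 list to the length of that of replicate 1 kept all 33. No paired analysis was possible because both libraries belong to 1 group. Read depth is unknown, so an absent peak means only that none was called, and 2 libraries give no test of differences between types.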
